A study of Mus musculus with 98 samples.

Results

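The proteasome subunit genes of mouse skeletal muscle were followed across 98 RNA-sequencing libraries. Members were the genes whose symbol starts with Psma, Psmb, Psmc, Psmd, Psme, Psmf or Psmg and a number, without pseudogene entries and with a mean of at least 1 TPM (a share of all transcripts, corrected for their length) over all libraries. The rule found 49 of 24526 genes. It uses names and mean levels and no difference between groups, but it was set with earlier results of these data known. Just inside the threshold were Psmb11 at 3.19 TPM, Psme2b at 4.81 TPM and Psmb9 at 5.02 TPM, and just outside it was Psma8, the alpha subunit of the testis, at 0.02 TPM. The name rule also took in Psmc3ip, a partner of meiotic recombinases that is no proteasome subunit, and Psme2b, a single-exon copy of Psme2 whose reads may be shared with Psme2.

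The proteasome is the protease that degrades proteins tagged with ubiquitin. Its barrel-shaped core is a stack of alpha and beta rings, with the cutting sites inside the beta rings, and a regulatory cap of ATPases and non-ATPase subunits binds, unfolds and feeds the substrate. Chaperones assemble core and cap, activators and an inhibitor bind the core ends in place of the cap, and interferon exchanges 3 beta subunits for those of the immunoproteasome. The transcription factor Nrf1 (gene Nfe2l1) raises subunit genes together when proteasome activity is limiting, and in muscle the ligases of Fbxo32 and Trim63 mark proteins for the proteasome during wasting.

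HSALR mice, homozygous here, carry a human skeletal actin transgene with an expanded CUG repeat, which the actin promoter expresses in skeletal muscle, and serve as a model of myotonic dystrophy; FVB mice without the transgene were the wild type. The drug is a (CAG)7 morpholino oligomer, given to HSALR mice as PMO (30 mg/kg) or conjugated as EEV4-PMO (15 or 30 mg/kg), and all controls received PBS. A dose study took gastrocnemius at 7 days from HSALR mice given PMO (n = 4), EEV4-PMO at either dose (n = 4 for each) or PBS (n = 8), and from FVB mice given PBS (n = 4). Time courses followed EEV4-PMO (15 mg/kg) in gastrocnemius on days 1, 2 and 4 and in quadriceps on days 1, 2, 4 and 7, with PBS groups of HSALR and FVB mice on day 4 (n = 4 in every group). Quadriceps RNA newly made and labelled with ethynyl uridine (EU), called nascent, was sequenced beside total RNA from HSALR mice on days 1 and 2 after EEV4-PMO (15 mg/kg, n = 3 for each) or on day 4 after PBS (n = 4). A late quadriceps set, 3 months after dosing, held HSALR mice given EEV4-PMO (15 mg/kg, n = 6) or PBS (n = 4). Every time of a course was thus set against PBS mice of day 4. The labels number the libraries of a group but do not name animals, so p-values measure the spread between these libraries. The libraries are of whole muscle, where fewer cells of a type and less RNA per cell cannot be told apart. Read counts were not used here, so the depth behind each TPM value is unknown.

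Skeletal muscle markers (8 listed genes, none at 0 in any library) summed to 79933 to 235534 TPM per library. In 4 libraries brown adipocyte markers summed to 209 to 1133 TPM, against a median of 3.52 TPM over all libraries and at most 156 TPM in the others. They were replicate 2 of treated gastrocnemius on day 4, replicate 2 of treated quadriceps on day 2, replicate 1 of FVB quadriceps and replicate 2 of treated quadriceps at 3 months. Counts of members that rest on them are also given without them, while marker results are not.

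Subunits of the standard proteasome were abundant, and the genes of its assembly and variants were expressed at lower levels. On the TPM scale, mean levels over all 98 libraries ran from 91.2 (Psmb2) to 355 (Psmb7, the trypsin-like site) in the 7 standard beta genes and from 85.2 (Psma5) to 195 (Psma6) in the 7 alpha genes. The 6 cap ATPases ran from 107 (Psmc4) to 188 (Psmc3), and the 11 non-ATPase cap subunits from 64.0 (Psmd14, the deubiquitinase of the cap) to 200 (Psmd4, a ubiquitin receptor). These 31 genes are called the standard subunits here. Of the 18 other members, the activator Psme4, which builds an ATP-independent cap, had 169 TPM and thus stood among the standard subunits. Core assembly chaperones had 13.5 (Psmg3) to 34.3 TPM (Psmg2), cap assembly chaperones 10.5 (Psmd10) to 26.6 TPM (Psmd5), and the inhibitor Psmf1 had 8.30 TPM. The immunoproteasome beta genes and their thymus relative Psmb11 had 3.19 to 11.6 TPM, the highest of them Psmb10.

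**Figure D1:**
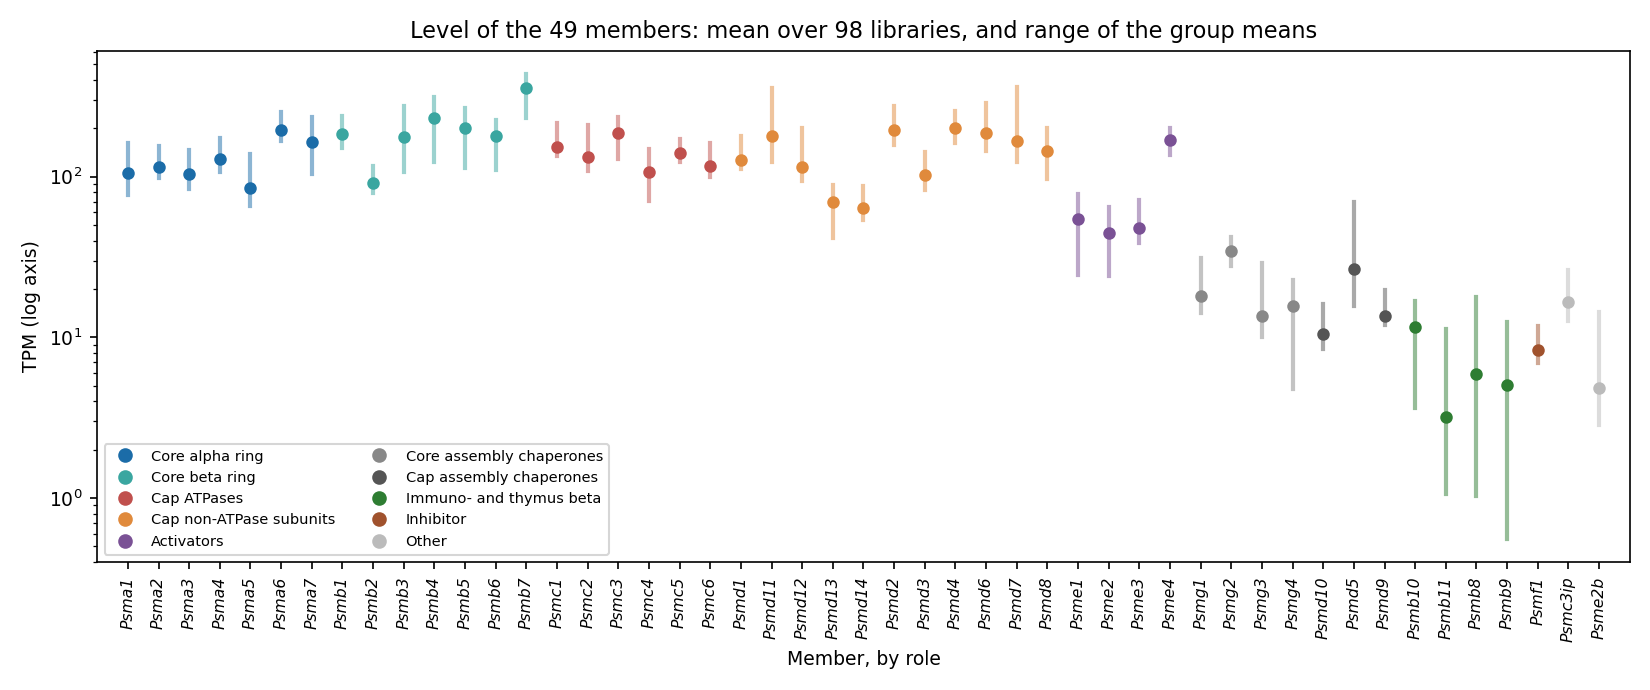
Mean TPM over all 98 libraries of each of the 49 members (points, log scale), with the range of the group means as a line, ordered by role. Standard core and cap subunits lie between 64.0 and 355 TPM, and assembly chaperones reach at most 34.3 TPM, while the activator Psme4 stands at 169 TPM.

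Nrf1 binds the antioxidant response element, with the motif TGACNNNGC, and the members' promoters were searched for it on both strands. RefSeq promoter windows (GRCm38.p6, 250 bases before to 50 bases after the gene start) were found for 42 of the 49 members. It was held by 6 of the 42 (14.3%), against 14% of all 27025 genes with a window. The 6 matches are shown for reference, and their part in the time course below was not tested. Each is printed 5′ to 3′ on the gene's strand with the match in capitals (on the opposite strand in Psmc6, Psmd12 and Psme4), and stretches near a window's edge or a gene start are shorter.
Psmb5 (chr14:54618018-54618058, - strand): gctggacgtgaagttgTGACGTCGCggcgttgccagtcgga
Psmb6 (chr11:70525332-70525356, + strand): ggcggactaaagagagTGACGGAGC
Psmc6 (chr14:45329581-45329621, + strand): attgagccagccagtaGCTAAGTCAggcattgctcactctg
Psmd12 (chr11:107479278-107479305, + strand): tctGCTGTGTCAcatttgcccccctcag
Psmd9 (chr5:123228143-123228183, + strand): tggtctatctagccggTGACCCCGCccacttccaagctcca
Psme4 (chr11:30771767-30771784, + strand): tGCAGCGTCAccagaaga
The matches in Psmb5, Psmb6, Psmd9 and Psme4 start at -47, -9, -31 and -7 from the RefSeq start, and those in Psmc6 and Psmd12 at -227 and -247. A match is a run of letters and not a shown binding site. The CCAAT box (CCAAT) was in 15 of the 42 windows (35.7%), against 41.1% of all genes, and the interferon gamma activated site (TTCNNNGAA) in 3 (7.14%), against 9.55%. The interferon response element was in 5 (11.9%), namely Psmb3, Psmd4, Psmd9, Psme1 and Psmg4, against 3.99% of all genes.

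In quadriceps, standard proteasome subunits were higher 4 days after EEV4-PMO at 15 mg/kg than in HSALR mice with PBS. Of the 49 members, 25 rose and 0 fell; over all genes tested 5.4% were called higher and 3.7% lower (limma on log2(TPM + 1), Benjamini-Hochberg adjusted p under 0.05, two-sided). All 25 belonged to the 31 standard subunits, whose median log2 change was 0.34, and 0 of the 18 other members were called (median 0.00). The median over all 49 members was 0.25, against -0.01 over all genes. By role, 6 of 6 cap ATPases rose (median 0.40), 6 of 7 alpha genes (0.44), 8 of 11 non-ATPase cap subunits (0.34) and 5 of 7 standard beta genes (0.25). None of the 4 activators, 4 core chaperones, 3 cap chaperones and 4 immunoproteasome and thymus beta genes was called. In 24 of the 49 members (49%) the libraries at 4 days and with PBS did not overlap, against 14.7% of all genes tested. Summed over the 31 standard subunits, the level was 6198 ± 418 TPM at 4 days, against 4883 ± 259 TPM in PBS mice (SD, n = 4 each).

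Psma5, an alpha-ring subunit (chr3:108256926-108279974, + strand, GENCODE vM21 on GRCm38), had 118, 108, 127 and 143 TPM at 4 days, against 83.0, 90.4, 78.9 and 79.3 TPM in PBS mice. Its groups did not overlap, and the log2 change of 0.57 (SE 0.09, adjusted p = 0.000454) was the largest among the members. Psma7, another alpha subunit (chr2:180036374-180042433, - strand), had 229, 221, 233 and 251 TPM at 4 days, against 150.4, 173, 156 and 164 TPM with PBS. Again all 4 treated libraries were above all 4 PBS libraries, with a log2 change of 0.54 (SE 0.11, adjusted p = 0.00229). Psmd1, the large scaffold subunit of the cap base (chr1:86064387-86139151, + strand), had 168, 165, 187 and 197 TPM at 4 days, against 126, 122, 126 and 124 TPM with PBS. The groups lay apart, and the log2 change was 0.52 (SE 0.08, adjusted p = 0.000141).

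Among the ATPases that unfold the substrate, Psmc1 (chr12:100110154-100123405, + strand) had 204, 201, 226 and 237 TPM at 4 days, against 145, 164, 145 and 152 TPM with PBS, a log2 change of 0.52 (SE 0.08, adjusted p = 0.000316). Psmc2 had 166, 164, 192 and 195 TPM at 4 days, against 117, 147, 130.4 and 124 TPM with PBS, with a log2 change of 0.47 (SE 0.10, adjusted p = 0.0031). Psmc6 (chr14:45329788-45349705, + strand), whose promoter match is printed above, had 148, 157, 167 and 171 TPM at 4 days, against 113, 127, 111 and 113 TPM with PBS, with a log2 change of 0.47 (SE 0.08, adjusted p = 0.000892). In all 3 ATPases the lowest treated library exceeded the highest PBS library. The same test did not call Psmb5, the chymotrypsin-like site of the core (chr14:54614119-54618022, - strand), at 0.22 (adjusted p = 0.121), nor Psmd11, a cap lid subunit, at 0.34 (adjusted p = 0.096). Psmb8, the immunoproteasome counterpart of Psmb5 (chr17:34197721-34201454, + strand), was at -0.34 (adjusted p = 0.458), the activator Psme4 at 0.14 and the inhibitor Psmf1 at 0.11, none of them called. Psmb9 at -0.10 and Psme1 at 0.24 were not called either, while Psma1 rose by 0.41 (adjusted p = 0.0175) and Psmc4 by 0.30 (adjusted p = 0.0338). Of the 6 members with the printed element, Psmb6, Psmc6 and Psmd12 rose and Psmb5, Psmd9 and Psme4 were not called. For comparison, 19 of the 42 members with a window rose, and 9 of the 15 with a CCAAT box.

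The 25 calls became 16 without treated replicate 3, all higher. In the same libraries satellite cell and regeneration markers summed to 178 to 301 TPM at 4 days, against 81.2 to 169 TPM with PBS, with 1 of 5 called higher. Most of the sum came from the myogenic factors Myog (mean 149 against 44.9 TPM) and Myod1 (96.0 against 58.5 TPM). Myh3 had 12.4 against 3.42 TPM, the satellite cell gene Pax7 2.15 against 1.78 TPM and Myh8 6.18 against 7.43 TPM. Summed skeletal muscle markers were 177026 to 218870 TPM at 4 days, against 142953 to 199414 TPM with PBS, with 1 of 8 called higher, and fibroblast markers 538 to 1449 TPM at 4 days, against 1059.9 to 1661 TPM with PBS, with 0 of 5 called. The part of these cell types in the subunit change was not tested.

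**Figure D2:**
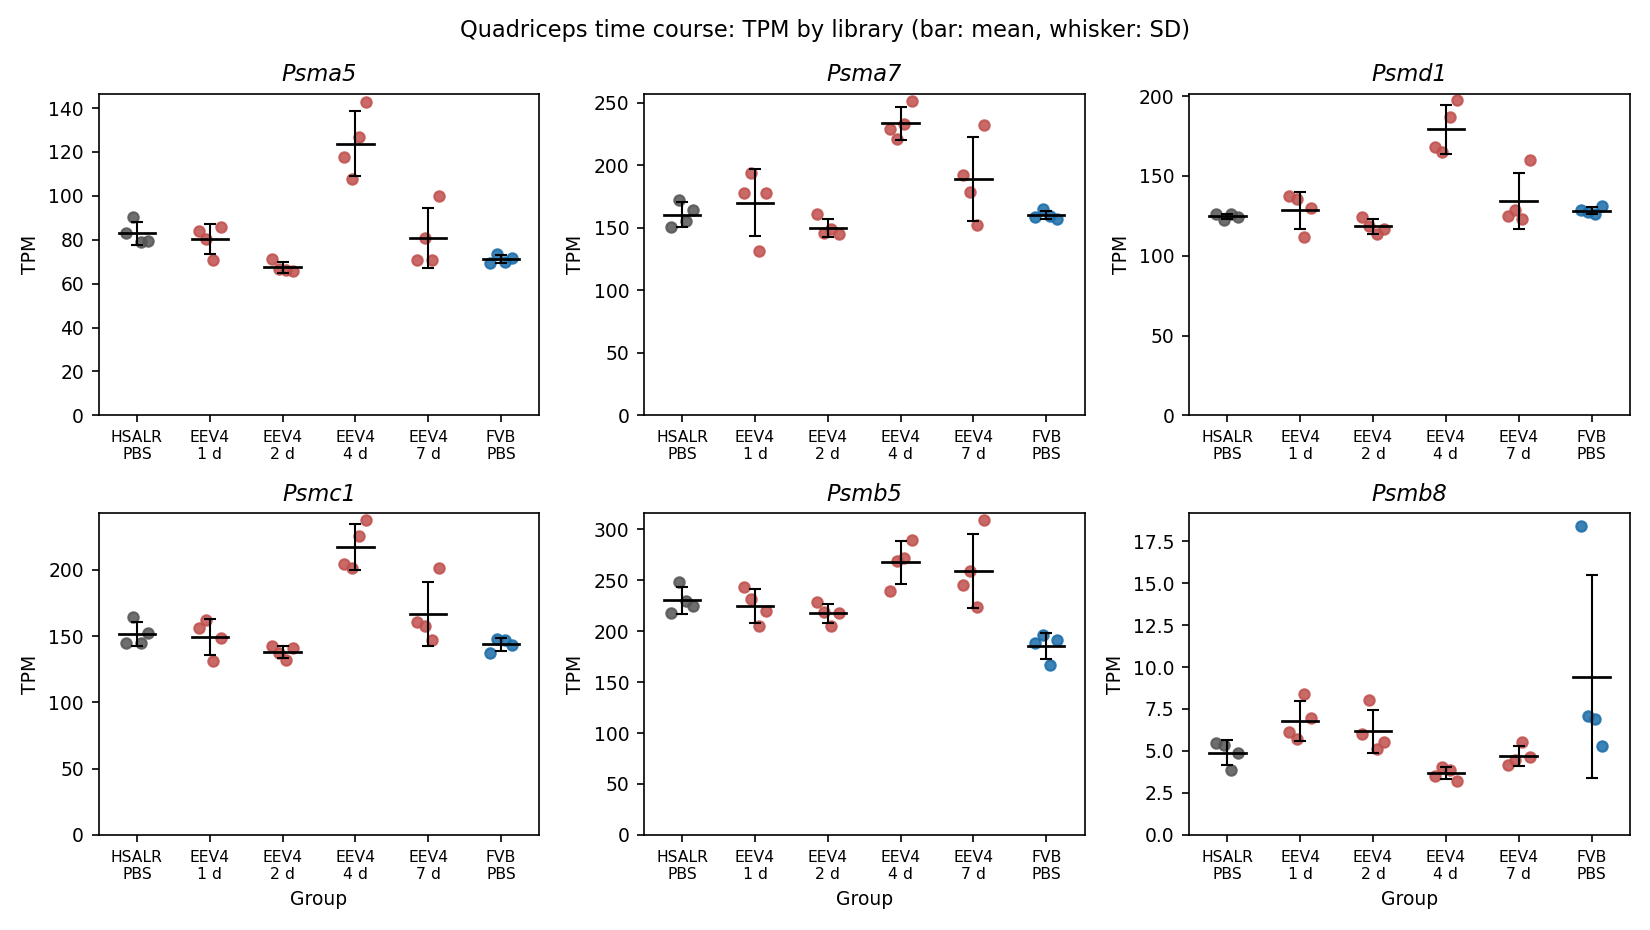
TPM in every quadriceps library of the time course (points) with the mean (bar) and SD (whisker), n = 4 per group, for 6 members. Psma5, Psma7, Psmd1 and Psmc1 are highest at 4 days after EEV4-PMO, while the mean change of Psmb5 and Psmb8 at 4 days was not called.

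Over the whole quadriceps course the standard subunits peaked at 4 days among the times sampled. The summed level was 4883 ± 259 TPM with PBS, then 4787 ± 464 TPM at 1 day, 4401 ± 85.3 TPM at 2 days, 6198 ± 418 TPM at 4 days and 5127 ± 676 TPM at 7 days, with 4373 ± 17.1 TPM in FVB mice (SD, n = 4 each). Against PBS, 0 members were called at 1 day, where limma gave 1 (2.04%) at an unadjusted p under 0.05, against 10.6% of all genes, and 0.615% of all genes were called. At 2 days 0 members were called, 13 (26.5%) at an unadjusted p under 0.05 against 14.7% of all genes, with 1.94% of all genes called, and the members' median was -0.08. At 7 days 1 of 49 was called, with 13.9% of all genes. That gene was Psmb7, with 390.2, 397, 417 and 488 TPM at 7 days, against 356, 363, 369 and 375 TPM with PBS, a log2 change of 0.20 (SE 0.06, adjusted p = 0.0289). It was not called without PBS replicate 1, without PBS replicate 2 or in a fit of these groups alone, 2 members were called without treated replicate 1, and rescaling gave 1 member higher and 1 lower.

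Set directly against each other, in comparisons chosen after the data were seen and sharing their 4-day libraries, the times differed more. At 4 days 30 members were higher and 0 lower than at 2 days, against 5.24% and 5.71% of all genes, and 33 members (67.3%) did not overlap between the times, against 19.3% of all genes. The 30 were 7 of 7 alpha genes, 7 of 7 standard beta genes, 6 of 6 ATPases and 10 of 11 non-ATPase cap subunits, and 0 of the 18 other members. The median was 0.52 in the standard subunits, 0.36 in all members and -0.07 over all genes. Psma5 had 118, 108, 127 and 143 TPM at 4 days, against 71.2, 66.8, 66.3 and 65.8 TPM at 2 days, a log2 change of 0.86 (SE 0.09, adjusted p = 9.8e-06). Psmd11 had 215, 215, 258 and 264 TPM at 4 days, against 131, 153, 128 and 152 TPM at 2 days, a log2 change of 0.75 (SE 0.13, adjusted p = 0.000512). Neither gene overlapped between the days. The next largest were Psmc2 at 0.69, the alpha subunit Psma1 at 0.67, Psmc1 at 0.65 and Psma7 at 0.63.

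By 7 days 18 members were lower than at 4 days and 0 higher, against 4.36% lower and 2.98% higher over all genes, and all 18 were standard subunits. They were 8 of 11 non-ATPase cap subunits, 5 of 7 alpha genes, 4 of 6 ATPases and 1 of 7 standard beta genes, and the standard subunits' median was -0.38. Psma5 had 70.9, 80.7, 70.8 and 99.95 TPM at 7 days, against 118, 108, 127 and 143 TPM at 4 days, a log2 change of -0.62 (SE 0.09, adjusted p = 0.000384). Psmd14 had 56.9, 55.3, 51.0 and 72.8 TPM at 7 days, against 81.6, 82.9, 86.7 and 101 TPM at 4 days, a log2 change of -0.58 (SE 0.10, adjusted p = 0.00165). In both genes the highest library at 7 days was below the lowest at 4 days. Psma1 was at -0.57, and the cap subunits Psmd7, Psmd11 and Psmd8 were at -0.48, -0.47 and -0.46. In a fit of these groups alone 8 members were called lower and 1 higher. Satellite cell and regeneration markers, at 4 days mainly Myog and Myod1, summed to 60.2 to 78.3 TPM at 2 days, 178 to 301 TPM at 4 days and 58.0 to 173 TPM at 7 days. Their part in these differences was not tested.

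**Figure D3:**
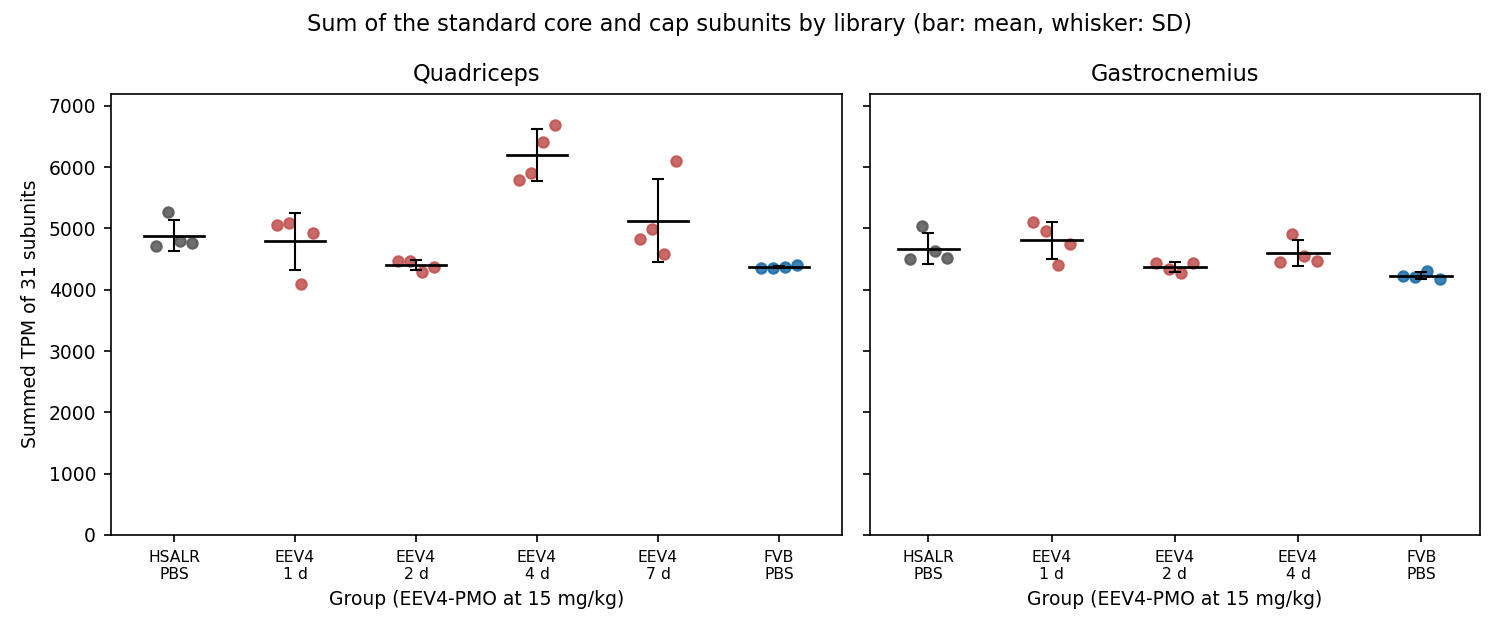
Summed TPM of the 31 standard subunits in every library (points) with the mean (bar) and SD (whisker), for both time courses and their PBS groups. The 4-day EEV4-PMO quadriceps libraries average 6198 TPM, above the 4883 TPM of HSALR quadriceps with PBS, and the 4-day gastrocnemius libraries average 4595 TPM.

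Part of the listed genes that work with the proteasome rose in the same 4-day quadriceps libraries. These lists and those of the next paragraph were chosen with earlier results of these data known, so their counts are no independent support. The shares of all genes called in the same comparisons are given above. Of 16 listed partners outside the name rule, 15 were tested and 9 rose against PBS, among them Usp14, a deubiquitinase of the cap, Zfand5, a proteasome-binding protein induced in muscle atrophy, and Adrm1, a ubiquitin receptor of the cap. Usp14 had 37.9 ± 2.51 TPM at 4 days, against 26.6 ± 2.06 TPM with PBS (log2 change 0.50, adjusted p = 0.00149). Zfand5 had 119 ± 14.5 TPM at 4 days, against 84.9 ± 6.73 TPM with PBS (log2 change 0.48, adjusted p = 0.0012). Adrm1 had 181 ± 15.7 TPM at 4 days, against 133 ± 6.51 TPM with PBS (log2 change 0.44, adjusted p = 0.00097). Also higher was Rad23b, which carries ubiquitinated proteins to the cap. Pomp, the chaperone that matures the core, was another, with 266 ± 14.6 TPM at 4 days, against 219 ± 6.38 TPM with PBS (log2 change 0.28, adjusted p = 0.0499). Of 13 listed regulators of Nrf1 and their relatives, 12 were tested and 6 rose: Nfe2l2, Ufd1l, Ddi2, Mafg, Vcp and Nploc4. Nfe2l2, the gene of the related factor Nrf2, had 74.2 ± 8.40 TPM at 4 days, against 48.0 ± 2.34 TPM with PBS (log2 change 0.61, adjusted p = 0.000637). Nfe2l1, the gene of Nrf1 itself, had 344 ± 21.0 TPM at 4 days, against 398 ± 23.8 TPM with PBS (log2 change -0.21, adjusted p = 0.0899) and was not called.

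Among 10 listed muscle ubiquitin ligases and Foxo factors 3 rose, and by more than any subunit. Fbxo32 (atrogin) had 383 ± 79.3 TPM at 4 days, against 111 ± 26.6 TPM with PBS (log2 change 1.78, adjusted p = 9.0e-06). Trim63 (MuRF) had 751 ± 66.7 TPM at 4 days, against 214 ± 8.83 TPM with PBS (log2 change 1.80, adjusted p = 9.7e-07). Foxo1, a transcription factor that activates both ligase genes, had 36.1 ± 5.97 TPM at 4 days, against 21.6 ± 6.33 TPM with PBS (log2 change 0.74, adjusted p = 0.0275). Of 13 tested genes of interferon response and class I antigen presentation 0 were called. At 4 days against 2 days 9 of 15 partners, 6 of 12 Nrf1 regulators and 4 of 10 ligases and Foxo factors were higher. At 7 days against 4 days 5 of the partners, 6 Nrf1 regulators and 4 ligases and Foxo factors were lower, and none of these lists had a call in the other direction in either comparison.

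In the gastrocnemius course the same dose gave no member called at 1, 2 or 4 days. Against PBS, 0 were called at 1 day, 0 at 2 days and 0 at 4 days by limma, where 1.38%, 1.07% and 0.518% of all genes were called. At an unadjusted p under 0.05 there was 1 member at 1 day (2.04%, against 12.2% of all genes), 7 at 2 days (14.3%, against 12%) and 2 at 4 days (4.08%, against 14%). The summed standard subunits were 4669 ± 251 TPM with PBS, 4802 ± 301 TPM at 1 day, 4373 ± 80.6 TPM at 2 days and 4595 ± 211 TPM at 4 days, with 4228 ± 58.2 TPM in FVB mice. Psma5 had 81.7, 93.7, 81.6 and 76.6 TPM in gastrocnemius at 4 days, against 83.3, 81.6, 74.0 and 75.1 TPM with PBS, groups that overlapped (log2 change 0.08, adjusted p = 0.582). Of these lists of partner and pathway genes, none had a call at 4 days.

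The difference between the muscles was tested itself, as the quadriceps minus the gastrocnemius effect at 4 days. The labels do not say whether the muscles came from the same mice, and the test took their libraries as independent. Pairing by replicate number between the muscles was not checked. With PBS, replicate 2 had the highest summed standard subunits in both HSALR muscles, 5035 TPM in gastrocnemius and 5268 TPM in quadriceps. At 4 days of EEV4-PMO the highest was replicate 2 in gastrocnemius (4905 TPM) and replicate 4 in quadriceps (6681 TPM). This difference was called positive for 9 of the 49 members and negative for 0, against 0.79% and 0.594% of all genes. Its median was 0.28 in the members and -0.06 over all genes. All 9 were standard subunits. Psmb3, a core subunit without a cutting site, had the largest difference among the 9, 0.53 (SE 0.12, adjusted p = 0.0182) on the log2 scale, its effect being 0.39 in quadriceps and -0.14 in gastrocnemius. The ATPases followed, with Psmc2 at 0.50 (SE 0.13, adjusted p = 0.0341), Psmc1 at 0.48 (SE 0.10, adjusted p = 0.0129) and Psmc6 at 0.48 (SE 0.11, adjusted p = 0.0158). Psma5 differed by 0.48 (SE 0.12, adjusted p = 0.0241) and Psmd1 by 0.45 (SE 0.11, adjusted p = 0.0229). The ubiquitin receptor Psmd4 differed by 0.44 (SE 0.12, adjusted p = 0.0395), the cap subunit Psmd6 by 0.39 (SE 0.10, adjusted p = 0.0389) and the trypsin-like site Psmb7 by 0.30 (SE 0.08, adjusted p = 0.0372). The largest difference in size, which was not called, was that of Psmb8, at -1.31 (adjusted p = 0.233). That value includes treated gastrocnemius replicate 2, without which the gastrocnemius change of Psmb8 was 0.21 in place of 0.98. The count depended on single libraries. It was 14 without treated gastrocnemius replicate 2, 2 without treated gastrocnemius replicate 1 or treated quadriceps replicate 3 or 4, 4 without gastrocnemius PBS replicate 2 or quadriceps PBS replicate 4, and 5 without quadriceps PBS replicate 1 or 3. It was 15 positive and 1 negative after median-of-ratios rescaling and 2 in a fit of these groups alone. The same difference was called for 0 members at 1 day and 0 at 2 days by limma, where 0% of all genes were called, and 0 members had an unadjusted p under 0.05, against 4.15% of all genes at 1 day and 6.45% at 2 days. Markers of other cell types passed the same 4-day test in the negative direction: Cd74 of antigen-presenting cells at -2.26 (adjusted p = 0.0484), 1 of 3 tested, and Col3a1 of fibroblasts at -1.67 (adjusted p = 0.0148), 1 of 5. Both tests include treated gastrocnemius replicate 2 and are not given without it. In quadriceps itself Cd74 averaged 38.6 TPM at 4 days, against 29.3 TPM with PBS, and Col3a1 262 TPM, against 421 TPM. Of 9 macrophage markers 0 were called, with a median of -1.35. Macrophage markers summed to 219.6 to 691 TPM in gastrocnemius at 4 days, against 109.7 to 196 TPM with PBS, and to 63.0 to 152 TPM in quadriceps at 4 days, against 97.2 to 203 TPM with PBS. Antigen-presenting markers summed to 159 to 1730.5 TPM in gastrocnemius at 4 days, against 42.9 to 72.7 TPM with PBS, and to 61.6 to 109 TPM in quadriceps, against 55.7 to 67.4 TPM with PBS. The part of these cells in the difference between the muscles was not tested.

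Immunoproteasome genes moved with single libraries. In gastrocnemius at 4 days of EEV4-PMO, Psmb8 had 7.41, 54.6, 5.40 and 4.30 TPM, against 4.28, 4.2, 4.2 and 6.35 TPM with PBS. Psmb9, its neighbour on chromosome 17, had 3.26, 37.0, 4.83 and 4.95 TPM at 4 days, against 2.67, 3.24, 4.68 and 4.61 TPM with PBS. Psme2, a subunit of the interferon-induced activator, had 51.9, 115, 45.7 and 47.8 TPM at 4 days, against 39.0, 47.9, 43.6 and 45.7 TPM with PBS. In each gene treated replicate 2 stood far above the other 7 libraries, and no immunoproteasome gene was called (0.98, adjusted p = 0.374 for Psmb8). Without that library the log2 change of Psmb8 was 0.21 and that of Psmb9 was 0.16. The same library had summed lymphocyte markers of 475 TPM (9 of 11 listed genes in the table), antigen-presenting markers of 1730.5 TPM and brown adipocyte markers of 747 TPM. Their part in the immunoproteasome values was not tested.

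Members differed between HSALR and FVB muscle in a small set that recurred. In gastrocnemius at 7 days 12 of 49 were higher in HSALR mice with PBS and 0 lower, against 11.8% and 8.79% of all genes. At 4 days 8 were higher and 0 lower in gastrocnemius (6.72% and 1.54% of all genes), and 9 were higher and 2 lower in quadriceps (7.79% and 5.95%). Psmd8, Psmd5, Psmb1, Psmb4, Psmd4 and Psmd7 were higher in HSALR in all 3 comparisons, which use different libraries, and 14 members in at least 1. How many of all genes recurred in this way was not counted. Whether these members recur more often than other genes is therefore unknown. The labels do not say whether the 4-day muscles came from the same mice, so those comparisons may share animals. The members' medians were 0.08, 0.14 and 0.09, against 0.00, 0.10 and -0.02 over all genes.

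Psmd8 and Psmd5 stood out by size in all 3 comparisons. Psmd8, a subunit of the cap lid (chr7:29174188-29180701, - strand), had 119 to 182 TPM (median 142 TPM) in HSALR gastrocnemius at 7 days, against 85.9, 84.8, 110.4 and 105 TPM in FVB, a log2 change of 0.55 (SE 0.10, adjusted p = 0.000283). At 4 days it had 159, 165, 129 and 172 TPM in HSALR gastrocnemius, against 93.1, 117, 112 and 86.3 TPM in FVB, a log2 change of 0.61 (SE 0.14, adjusted p = 0.0122). In quadriceps it had 170.1, 177, 151 and 181 TPM in HSALR, against 108, 114, 108 and 100.4 TPM in FVB, a log2 change of 0.65 (SE 0.14, adjusted p = 0.00266). All HSALR libraries thus lay above all FVB libraries of their muscle and day. Psmd5, a chaperone of cap assembly (chr2:34849734-34874968, - strand), had 19.7 to 29.6 TPM (median 23.3 TPM) in HSALR gastrocnemius at 7 days, against 18, 16.2, 15.1 and 13.2 TPM in FVB, a log2 change of 0.60 (SE 0.09, adjusted p = 6.8e-05). At 4 days it had 24.3, 30.5, 25.3 and 23.2 TPM in HSALR gastrocnemius, against 15.1, 15.9, 17.0 and 17.0 TPM in FVB, a log2 change of 0.63 (SE 0.12, adjusted p = 0.00275). In quadriceps it had 25.4, 30.7, 24.0 and 24.3 TPM in HSALR, against 18.6, 16.3, 20.1 and 17.3 TPM in FVB, a log2 change of 0.50 (SE 0.12, adjusted p = 0.00832). Psmd5 did not overlap between the genotypes in any of the 3 comparisons.

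Psmg4, a chaperone of core assembly (chr13:34162964-34178173, + strand), had 16.7 to 25.4 TPM (median 20.3 TPM) in HSALR gastrocnemius at 7 days, against 10.8, 13.8, 12.9 and 10.6 TPM in FVB, a log2 change of 0.73 (SE 0.12, adjusted p = 9.5e-05). At 4 days it had 19.6, 18.5, 18.5 and 17.9 TPM in HSALR gastrocnemius, against 15.8, 13.4, 12.1 and 9.59 TPM in FVB, a log2 change of 0.54 (SE 0.14, adjusted p = 0.0255). In quadriceps its change was 0.13 (adjusted p = 0.625). The groups lay apart in gastrocnemius on both days, and the difference between the muscles was not called at 4 days for any member (limma, 0.00724% of all genes called, and 3 members or 6.12% at an unadjusted p under 0.05, against 6.77% of all genes). Psmd4 had a log2 change of 0.36 (SE 0.07, adjusted p = 0.000579) in gastrocnemius at 7 days, and Psmd11 one of 0.31 (SE 0.09, adjusted p = 0.0201). Psmb1, a beta-ring subunit without a cutting site, had 194, 214, 207 and 188 TPM in HSALR gastrocnemius at 4 days, against 149, 157, 163 and 139 TPM in FVB, a log2 change of 0.40 (SE 0.06, adjusted p = 0.000677) without overlap. Its change was 0.28 in gastrocnemius at 7 days and 0.31 in quadriceps. Among the fixed examples Psmc4 rose by 0.21 and Psma1 by 0.19 in gastrocnemius at 7 days, while Psmb5 was at 0.06, Psmb8 at -0.19, Psme4 at -0.06 and Psmf1 at -0.05 without a call. In the 7-day gastrocnemius libraries 6 of 8 skeletal muscle markers were lower in HSALR, their sum being 166834 to 189713 TPM, against 204935 to 230227 TPM in FVB. Macrophage markers summed to 55.1 to 145 TPM in HSALR, with 3 of 9 called higher, against 43.0 to 75.2 TPM in FVB, and their part in the subunit values was not tested.

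In quadriceps the 2 members lower in HSALR were Psmb9 and Psme1, a smaller share than that of all genes given above. Of the other interferon-induced members, limma did not call Psmb8 at -0.68 (adjusted p = 0.0526), Psme2 at -0.26 (adjusted p = 0.304) or Psmb10 at 0.13 (adjusted p = 0.665). Psmb9 had 3.26, 4.64, 2.69 and 3.94 TPM in HSALR quadriceps, against 15.4, 4.92, 10.5 and 3.70 TPM in FVB, a log2 change of -0.90 (SE 0.29, adjusted p = 0.0457). The groups overlapped, and FVB replicate 1 was the highest library. Psme1, a subunit of the interferon-induced activator (chr14:55578123-55581529, + strand), had 55.5, 71.0, 45.5 and 51.5 TPM in HSALR, against 90.1, 75.4, 83.1 and 62.7 TPM in FVB, a log2 change of -0.48 (SE 0.15, adjusted p = 0.0363). Without FVB replicate 1, which had summed brown adipocyte markers of 1133 TPM and adipocyte markers of 5556 TPM, Psmb9 was at -0.58 (adjusted p = 0.16) and Psme1 at -0.40 (adjusted p = 0.102), and 9 members were called higher and 0 lower. The quadriceps count was 4 without FVB replicate 3, 5 without HSALR replicate 2 or 3 and 7 without FVB replicate 2 or HSALR replicate 4. It was 6 in a fit of these groups alone and 6 with no filter on low values. The gastrocnemius count at 4 days was 3 after rescaling, which took the median of all genes off its 0.10, and 3 in a fit of the 2 groups alone.

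**Figure D4:**
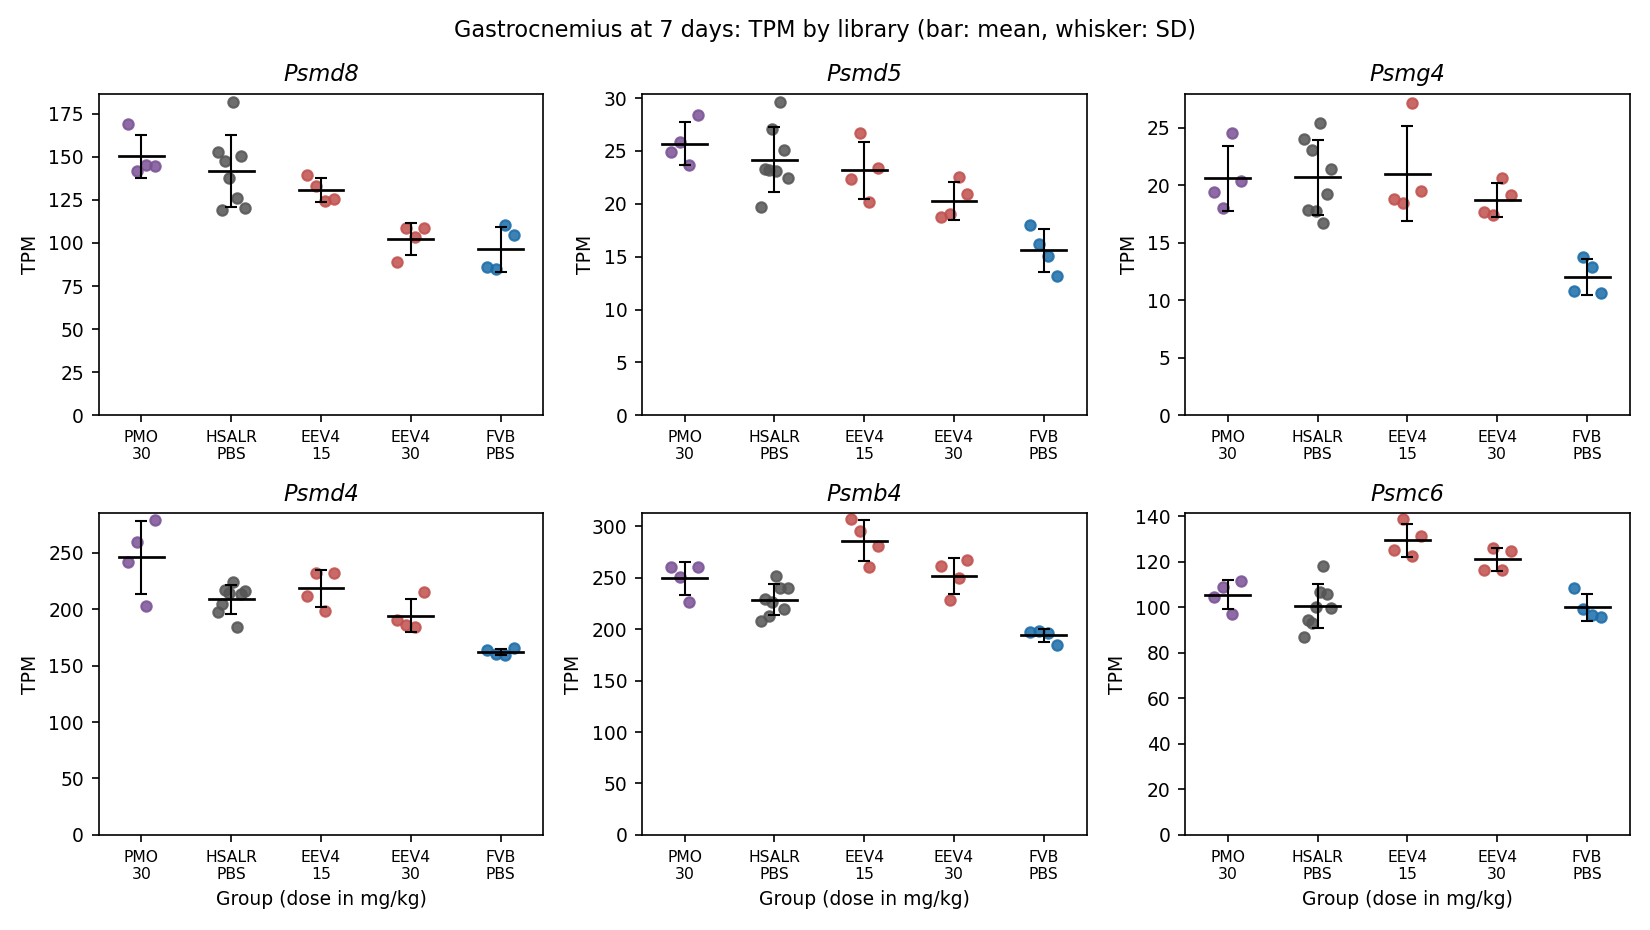
TPM in every gastrocnemius library at 7 days (points) with the mean (bar) and SD (whisker) for 6 members, in HSALR mice with PMO, PBS and both doses of EEV4-PMO and in FVB mice. Psmd8 at EEV4-PMO 30 mg/kg overlaps the FVB libraries, while Psmd5 and Psmg4 at that dose lie above them and Psmc6 averages highest at 15 mg/kg.

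In gastrocnemius at 7 days no member was called for the unconjugated PMO at 30 mg/kg against PBS (0 by limma, 0% of all genes called). At an unadjusted p under 0.05 there were 10 members (20.4%), against 7.82% of all genes. EEV4-PMO at 15 mg/kg gave 16 members higher and 1 lower, against 7.89% and 3.19% of all genes. All 16 were standard subunits: 6 of 7 beta genes, 4 of 7 alpha genes, 3 of 6 ATPases and 3 of 11 non-ATPase cap subunits. Psmc6 had 125, 139, 122 and 131 TPM at 15 mg/kg, against 86.9 to 118 TPM (median 99.9 TPM) with PBS, a log2 change of 0.36 (SE 0.06, adjusted p = 0.000786). Psmb4, a beta-ring subunit without a cutting site (chr3:94884093-94886961, - strand), had 307, 295, 260.4 and 281 TPM at 15 mg/kg, against 207 to 252 TPM (median 228 TPM) with PBS, a log2 change of 0.32 (SE 0.06, adjusted p = 0.000798). Psma7 had 191, 219.9, 186 and 203 TPM at 15 mg/kg, against 149.8 to 177 TPM (median 160.2 TPM) with PBS, a log2 change of 0.31 (SE 0.05, adjusted p = 0.000206). In these 3 genes every treated library was above every PBS library. Psma5 changed by 0.29 (SE 0.08, adjusted p = 0.0258), Psmb5 by 0.28 (SE 0.07, adjusted p = 0.0104) and Psmd2, a scaffold of the cap base, by 0.31 (SE 0.06, adjusted p = 0.00162). The lower gene was Psmc3ip at -0.38 (SE 0.11, adjusted p = 0.0261), which is no subunit. Of the partners 6 of 15 rose. Without treated replicate 2, 8 members were called, all higher, and 9 were called in a fit of these groups alone.

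At 30 mg/kg EEV4-PMO 2 members were higher and 3 lower than with PBS, against 9.7% and 5.34% of all genes. Psmd8 had 89.1, 109, 103 and 108 TPM at 30 mg/kg, against 119 to 182 TPM (median 142 TPM) with PBS, a log2 change of -0.46 (SE 0.10, adjusted p = 0.00265) with no overlap. The lid subunit Psmd7 had 132, 129, 132 and 135 TPM at 30 mg/kg, against 137 to 156 TPM (median 149 TPM) with PBS, a log2 change of -0.16 (SE 0.05, adjusted p = 0.0275), also without overlap. Psmc3ip fell too, by 0.34 on the log2 scale, and Psmc6 (0.27) and Psmb7 (0.13) rose. The count was 3 without treated replicate 1 or replicate 3 and in a fit of these groups alone, and after rescaling 1 member was higher and 6 were lower. Against PMO at the same 30 mg/kg, 0 members were higher and 4 lower (11.7% of all genes called in either direction). Psmd8 had 89.1, 109, 103 and 108 TPM with EEV4-PMO, against 169, 142, 145 and 145 TPM with PMO, a log2 change of -0.55 (SE 0.11, adjusted p = 0.0024). The others were Psmg3, a core chaperone (-0.39), Psmd4 (-0.33) and Psmd7 (-0.27). Without PMO replicate 3, 7 members were lower and 1 higher, 8 were called after rescaling and 2 in a fit of these groups alone.

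Between the doses of EEV4-PMO no member was called (0 by limma at 30 against 15 mg/kg, 0.0432% of all genes called). At an unadjusted p under 0.05 there were 21 members (42.9%), against 5.12% of all genes. The members' median difference was -0.14. Psmd8 differed by -0.35 (95% interval -0.59 to -0.12, adjusted p = 0.709), having 89.1, 109, 103 and 108 TPM at 30 mg/kg, against 139.7, 133, 125 and 126 TPM at 15 mg/kg. The summed standard subunits were 4559 ± 181 TPM at 30 mg/kg, against 5047 ± 284 TPM at 15 mg/kg. PMO mice had 4752 ± 266 TPM, HSALR mice with PBS 4454 ± 178 TPM and FVB mice 4108 ± 62.7 TPM.

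EEV4-PMO mice at 30 mg/kg were also set against FVB mice, a comparison chosen after the data were seen, which shares its controls with the 7-day genotype comparison. There 11 members were higher and 0 lower, against 8.93% and 3.74% of all genes. Psmd8 differed by 0.09 (95% interval -0.14 to 0.33, adjusted p = 0.643), with 89.1, 109, 103 and 108 TPM in treated HSALR mice, against 85.9, 84.8, 110.4 and 105 TPM in FVB mice. These groups overlapped, and in the genotype comparison the same gene differed by 0.55. That difference and the fall of Psmd8 at 30 mg/kg against PBS share the same HSALR PBS libraries, so they are not independent. Psmd7 differed by 0.11 (95% interval -0.01 to 0.22). Psmg4 was higher in treated HSALR mice, with 17.7, 17.4, 20.6 and 19.2 TPM, against 10.8, 13.8, 12.9 and 10.6 TPM in FVB mice, a log2 change of 0.60 (SE 0.13, adjusted p = 0.00511). Psmd5 was higher as well, at 0.36 (SE 0.11, adjusted p = 0.0292), and did not overlap. The count was 4 without treated replicate 4, 5 without FVB replicate 3 or 4, 7 without FVB replicate 2 or treated replicate 3, and 6 after rescaling.

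Psmd5 was lower with EEV4-PMO in total RNA of the EU mice at 2 days. It had 18.4, 17.1 and 17.6 TPM at 2 days of EEV4-PMO, against 26.0, 27.6, 27.2 and 25.3 TPM with PBS, a log2 change of -0.56 (SE 0.10, adjusted p = 0.0158). It was the single member called of 49 (0 higher and 1 lower, 0.59% of all genes called), and it was not called without treated replicate 2 or 3 or without PBS replicate 2 or 3. At 1 day 0 members were called in total RNA (limma, 0.0144% of all genes called, and 0 members at an unadjusted p under 0.05, against 4.97% of all genes). In nascent RNA 0 were called at 1 day (1.05% of all genes called) and 1 at 2 days (6.26%). At 1 day limma gave 13 members (26.5%) at an unadjusted p under 0.05, against 16.2% of all genes. The member called at 2 days was Psmb9, with 1.05, 0.628 and 0 TPM at 2 days, against 3.39, 1.57, 3.50 and 1.55 TPM with PBS, a log2 change of -1.18 (SE 0.28, adjusted p = 0.0193) at levels near the threshold of 1 TPM. The nascent count at 2 days was 0 without PBS replicate 1 or 3 and in a fit of these groups alone, 2 without treated replicate 2 or PBS replicate 4, and 3 without treated replicate 1. Without treated replicate 3 it was 2, both higher, and rescaling gave 2 higher and 1 lower. The effect of EEV4-PMO differed between nascent and total RNA for 0 members at 1 day and 0 at 2 days by limma, where 0.0072% and 0% of all genes were called. That test took nascent and total libraries as independent, although same-numbered PBS libraries deviated together. The absence of calls therefore does not show equal effects. At an unadjusted p under 0.05 there were 4 members at 1 day (8.16%, against 5.23% of all genes) and 2 at 2 days (4.08%, against 4.33%).

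Between nascent and total RNA of PBS mice the members split on the TPM scale, but after rescaling most were lower. On the TPM scale 15 were higher and 16 lower in nascent RNA, against 59.2% and 20% of all genes, and the members' median was -0.01, against 0.73 over all genes. After median-of-ratios rescaling, which brought the median of all genes to 0.03, 4 members were higher and 40 lower, with 5396 genes higher and 5414 lower in all. Psmb11, the beta subunit of thymus, had 12, 11.3, 10.3 and 11.5 TPM in nascent RNA, against 1.27, 1.06, 1.20 and 1.16 TPM in total RNA, a log2 change of 2.5 (SE 0.12, adjusted p = 1.0e-11) and 1.88 after rescaling. Its gene (chr14:54621433-54629556, + strand) lies next to Psmb5. Psmd7 had 350.2, 356, 378 and 361 TPM in nascent RNA, against 144, 157, 159 and 153 TPM in total RNA, a log2 change of 1.23 (SE 0.09, adjusted p = 1.4e-09) and 0.42 after rescaling. Psmg4 had 4.15, 6.19, 4.99 and 3.66 TPM in nascent RNA, against 15.6, 17.1, 17.8 and 15.3 TPM in total RNA, a log2 change of -1.62 (SE 0.17, adjusted p = 1.9e-07) and -2.33 after rescaling. None of these groups overlapped.

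By role on the TPM scale, 5 of 7 standard beta genes were lower in nascent RNA and 0 higher (median -0.73), with Psmb5 at -1.13. Of the 11 non-ATPase cap subunits 4 were higher and 1 lower, with Psmd11 at 1.05, and 2 of the 3 cap chaperones were higher, with Psmd5 at 1.15. The immunoproteasome genes Psmb8 (-1.24) and Psmb10 (-1.23) and the activator Psme1 (-1.22) were lower. Psma1 (0.40) and Psmf1 (0.33) turned to -0.41 and -0.40 after rescaling. Grouped by their calls on the TPM scale, the members higher in nascent RNA had a median gene span of 19.9 kb (n = 15). Those lower had 5.92 kb (n = 16) and those not called 12.9 kb (n = 18). These groups hold for that scale only, since rescaling changed the calls as given above. Across the 49 members the change ranked with gene span at a Spearman correlation of 0.27, a description over genes that share these libraries.

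By 3 months after EEV4-PMO (15 mg/kg), 4 members were lower in quadriceps than with PBS and 0 higher, with 7.65% of all genes called in either direction. Psmd5 had 15.0 to 21.1 TPM (median 18 TPM) after EEV4-PMO, against 28.0, 24.1, 23.3 and 22.8 TPM with PBS, a log2 change of -0.42 (SE 0.10, adjusted p = 0.0344) without overlap. The others were Psmd4 (-0.32), Psmb4 (-0.31) and Psmd2 (-0.25). The members' median of -0.19 lay close to the -0.17 of all genes, and after rescaling, which brought that of all genes to 0.00, 0 members were called. The count was 17, all lower, without treated replicate 1, 7 without treated replicate 6, and 0 without any 1 of the other 8 libraries.

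Alternative splicing of the member genes had no called difference. The authors' table of exon inclusion (PSI, the share of transcripts that include a sequence) held 438 events of 45 member genes. With a value in every library, 216 events were tested in the 7-day gastrocnemius, 174 in the gastrocnemius course and 194 in the quadriceps course. By limma, 0 passed an adjusted p under 0.05 with a PSI difference of at least 0.1 in any of the 6 comparisons. Over all events 1.06% were called for HSALR against FVB in gastrocnemius at 7 days, 0.409% in gastrocnemius at 4 days and 0.557% in quadriceps at 4 days. Unadjusted p-values under 0.05 came to 12 member events (5.56%, against 8.82% of all events) in gastrocnemius at 7 days, 5 (2.87%, against 6.35%) in gastrocnemius at 4 days and 8 (4.12%, against 7.01%) in quadriceps. Against PBS at 7 days, 0% of all events were called for PMO, 0.585% for EEV4-PMO at 15 mg/kg and 0.838% at 30 mg/kg. Unadjusted p-values under 0.05 came there to 8 member events (3.7%, against 5.98% of all events) for PMO, 13 (6.02%, against 8.94%) at 15 mg/kg and 10 (4.63%, against 9.1%) at 30 mg/kg. The lowest adjusted p, 0.064, belonged to an event of Psme4 at 30 mg/kg. In gastrocnemius at 7 days the median absolute PSI difference between HSALR and FVB was 0.0033 in member events, against 0.0129 in all events.

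**Figure D5:**
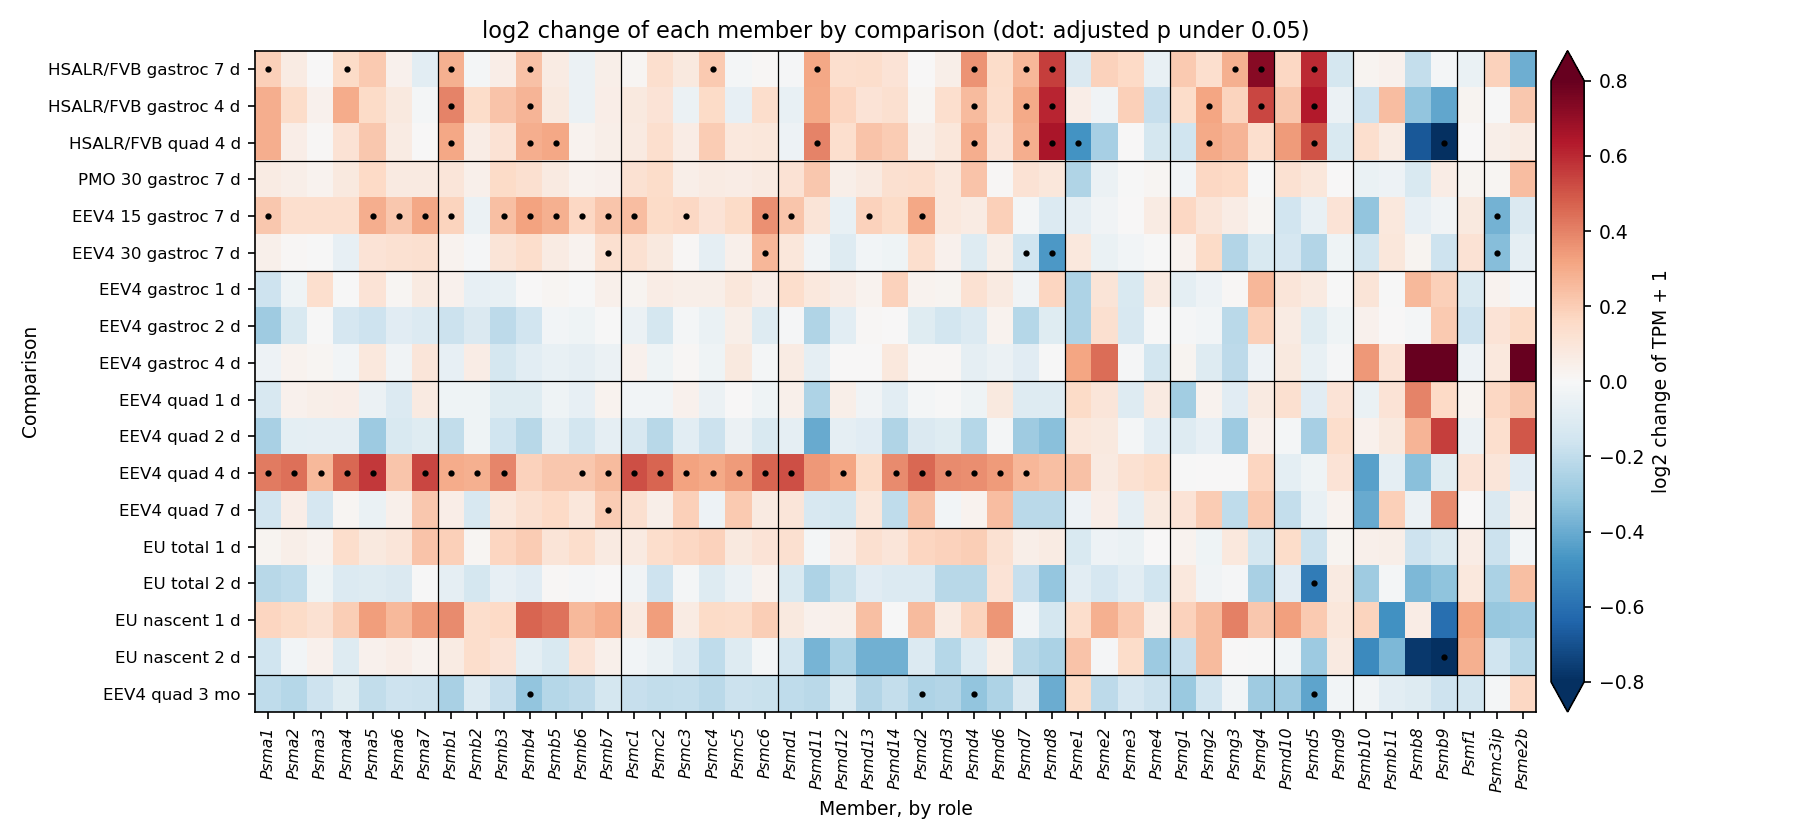
Log2 change of each of the 49 members (grouped by role) in 18 comparisons, from blue (lower) to red (higher), with a dot where limma called the difference. The standard core and cap genes form a red block at 4 days in quadriceps, and Psmd5 and Psmd8 are red in the 3 genotype comparisons.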

How the data were processed

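RNA was measured in 98 libraries of gastrocnemius or quadriceps, prepared with a stranded kit once ribosomal RNA had been removed, per the labels' protocols; RNA of the EU libraries was extracted with a different kit. Expression values were deposited by the authors as TPM, and exon inclusion as a PSI fraction from 0 to 1 with rMATS event coordinates, per the labels and the file headers. Tools given without versions or roles, per the submitters' processing notes, are kallisto, STAR and cutadapt, and the builds are mm10 and GRCm38. TPM keeps no depth and depends on the rest of each library, so a change in very abundant genes shifts all others.

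Of 24528 rows, 2 lacked a value in part of the libraries and were not used. Samples were grouped by their GEO labels. limma 3.58.1 (R 4.3.3) was fitted to log2(TPM + 1) of all genes with a mean of at least 1 TPM in a cohort, with 1 coefficient per group, a mean-variance trend and all groups of the cohort, and p-values were adjusted by Benjamini-Hochberg over all genes tested; a gene was called at an adjusted p under 0.05. A fold change on this scale understates the change of low genes. PSI was fitted likewise on its linear scale, where a call also needed a difference of at least 0.1. There were 21 planned comparisons of 2 groups, 3 added after the data were seen, 6 differences of effects and 6 exon comparisons. The members, gene lists and motifs were chosen with earlier results of these data known. Members were named as up to 6 called ones with the largest absolute change in a comparison, as 9 fixed examples or by a called difference of effects; others were named after their values were seen. A result of 1 further gene list is not reported here. Alternatives were a pseudocount of 0.1, no filter on low values, median-of-ratios rescaling, the compared groups alone, the replicate number as a block, leaving out each library and, added later, leaving out the 4 libraries with over 200 TPM of brown adipocyte markers. In nascent and total RNA of PBS mice, same-numbered libraries deviated together in 4 of 4 pairs (correlation 0.13 to 0.29, threshold 0.1). In the other comparisons not every pair passed. With so few pairs, this check cannot decide whether a number marks an animal. No pair of libraries held identical values. The scripts were tested on simulated data with 200 genes changed. Gene positions are from GENCODE vM21 and promoter windows from RefSeq. Figures and counts were made with Python 3.11.15 and pandas 2.3.3.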

Additional observations from a re-analysis of the deposited data

Results flagged for a closer look

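Of 120 pairs of a gene (or sum) and a group of 4 to 10 libraries, 11 held a library far from the others by Dixon's test, where chance gives about 1 in 20. In gastrocnemius at 4 days of EEV4-PMO, replicate 2 stood apart for Psmb8 at 54.6 TPM and for Psmb9 at 37.0 TPM. In FVB quadriceps, replicate 1 stood apart for Psmb8 at 18.4 TPM. HSALR quadriceps with PBS had replicate 2 apart for Psmc6 at 127 TPM, for Psmd11 at 236 TPM and for the summed standard subunits at 5268 TPM. The lowest sum, 4099 TPM, was that of replicate 3 in quadriceps at 1 day. Single libraries also stood high for Psmb7 in HSALR gastrocnemius with PBS at 7 days (replicate 5, 400.05 TPM) and for Psmd7 in HSALR gastrocnemius with PBS at 4 days (replicate 2, 169 TPM). The same held for Psmd8 with PMO at 30 mg/kg (replicate 1, 169 TPM) and for Psmd4 at 3 months of EEV4-PMO (replicate 6, 225 TPM). For 9 members the effect of EEV4-PMO at 4 days differed between quadriceps and gastrocnemius by limma's test of the difference. On the log2 scale, quadriceps minus gastrocnemius, it was 0.53 for Psmb3, 0.50 for Psmc2, 0.48 for Psmc1, Psma5 and Psmc6, 0.45 for Psmd1, 0.44 for Psmd4, 0.39 for Psmd6 and 0.30 for Psmb7.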

How the results depend on the processing

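The rise of standard subunits in quadriceps at 4 days kept its direction in every alternative run: the members called numbered 25, and 19 to 25 under another pseudocount, no filter, rescaling (1 of them lower), the replicate block, the groups alone or without the brown adipocyte libraries. Leaving out 1 library gave 16 to 26. After rescaling, the count was 8 for EEV4-PMO against PMO at 30 mg/kg, 6 for EEV4-PMO at 30 mg/kg against FVB, 3 for HSALR against FVB in gastrocnemius at 4 days, 2 at 2 days and 2 at 7 days in quadriceps, 3 in nascent RNA at 2 days, 0 at 3 months and 16 for the difference between muscles at 4 days. In nascent against total RNA, Psma1 and Psmf1 turned to -0.41 and -0.40. Rescaling moved the median of all genes by over 0.1 in that comparison, at 3 months, in HSALR against FVB in gastrocnemius at 4 days and in nascent RNA at 2 days. The median also moved by over 0.1 for the difference of effects between nascent and total RNA at 1 day. The same held for the difference between the muscles at 2 days. With the replicate block the count was 7 for HSALR against FVB and 10 for EEV4-PMO at 30 mg/kg in gastrocnemius at 7 days, 2 in nascent RNA at 2 days and 0 at 3 months. Whether the numbers pair the libraries there is unknown. In nascent against total RNA, where all same-numbered pairs deviated together, the block gave 32 calls beside 31. Fitting only the groups compared, the count was 9 for EEV4-PMO at 15 mg/kg and 3 at 30 mg/kg, 2 for EEV4-PMO against PMO, 3 and 6 for HSALR against FVB at 4 days in gastrocnemius and in quadriceps, 0 in quadriceps at 7 days against PBS and 9 against 4 days, 0 in nascent RNA at 2 days and 2 for the difference between muscles. With no filter it was 6 for HSALR against FVB in quadriceps and 1 at 3 months. Without the brown adipocyte libraries it was 0 at 3 months and 14 for the difference between muscles. Leaving out 1 library gave 10 to 16 for HSALR against FVB in gastrocnemius at 7 days, 6 to 8 at 4 days and 4 to 9 in quadriceps. It gave 8 to 19 for EEV4-PMO at 15 mg/kg, 3 to 6 at 30 mg/kg, 3 to 8 against PMO and 4 to 10 against FVB. In quadriceps it gave 0 to 2 at 7 days, 28 to 31 for 4 against 2 days and 12 to 24 for 7 against 4 days. It gave 0 to 1 in total and 0 to 3 in nascent RNA at 2 days, 29 to 31 for nascent against total RNA, 0 to 17 at 3 months and 2 to 14 for the difference between muscles. All other counts of members stayed 0, as did events in 88 exon settings. Each named gene in each comparison and alternative run was taken as 1 value: 5064 stayed the same, 278 lost and 25 gained their call. A further 70 moved and 2 turned direction, and the causes were not tested. TPM gives no depth, so how far counting error limits low genes such as Psmb9 is unknown.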

Other observations

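Over the 21 planned comparisons, the fixed examples differed in how often they were called. Psma1 was called in 4, Psmb5, Psmc4, Psmd11 and Psmb9 in 3 each, Psme1 in 2, Psmb8 and Psmf1 in 1 each. No such count was made for other genes, and the 21 include nascent against total RNA, where most genes were called. Psme4, the most abundant member outside the standard subunits, was called in 0, with log2 changes between -0.29 and 0.14. The summed standard subunits in the EU mice averaged 4735 TPM with PBS, 5380 TPM at 1 day of EEV4-PMO and 4533 TPM at 2 days in nascent RNA. In total RNA they averaged 4890 TPM with PBS, 5337 TPM at 1 day and 4607 TPM at 2 days. At 3 months they were 4066 ± 337 TPM after EEV4-PMO (SD, n = 6), against 4687 ± 125 TPM with PBS (SD, n = 4).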
